A study of Mus musculus with 12 samples.

Results

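Interferon-stimulated genes are genes that cells switch on when an interferon signals to them, and 9 of them were followed here in mouse liver: Ifit1, Ifit2, Ifit3, Rsad2, Oas1a, Ifi44, Isg15, Usp18 and Irf7. They were chosen by name, as the rows of the count table whose Ensembl identifier maps to these symbols, and all 9 had a row among the 27022 genes of the table. The choice was made with earlier results of these data known. The samples were livers of 6 female SJL/J mice killed at 11 weeks of age, of which 3 ate the control diet (50 ppm iron) throughout and 3 ate the iron-loaded diet (2% carbonyl iron) from 6 weeks of age on. From the same RNA of a liver 1 library was prepared with each of 2 kits, which gave 12 libraries in 4 groups. Trad-KAPA is the whole-transcript method (KAPA Stranded mRNA-Seq), which reads fragments from the full length of a message, and 3’-LEXO (Lexogen QuantSeq 3’ FWD) reads a single fragment near its 3’ end. All mice were fasted and perfused before the liver was taken. Because a diet was given to a single cage of mice, its effect and that of the cage cannot be told apart in any value below, and the labels name no infection or interferon treatment.

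Interferons bind receptors on the cell surface, the kinases JAK1 and TYK2 then activate transcription factors, and these bind a promoter sequence called the interferon-stimulated response element. The genes switched on in this way make proteins that bind viral RNA, block viral replication or tag other proteins, and also proteins that strengthen or damp the signal itself. In uninfected tissue many of them are expressed at a low level.

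The depth was between 10724672 and 16553616 counts per library, and the 9 genes had between 6 and 353 reads in a library, all above the 3 reads taken as the floor of detection. Levels are given in CPM, that is, a gene's reads divided by the library's total and scaled to 1e+06 reads. Fold changes come from the edgeR quasi-likelihood test, which rescales the libraries by TMM, and a gene was called at an adjusted p under 0.05 over all genes tested. Hepatocyte markers fit the tissue, with a summed level of at least 111880 CPM in every Trad-KAPA library. The iron response was also present, as 4 of 6 listed genes of that response rose with Trad-KAPA and 3 of 5 tested did so with 3’-LEXO, beside 8.77% and 3.17% of all genes tested. Hamp was called in 3’-LEXO but not in Trad-KAPA (edgeR adjusted p = 0.0425 and 0.0667). The summed level of the 6 genes was 589, 89.5 and 126 CPM in control mice 1, 2 and 3 and 1192 to 1479 CPM in the iron-loaded mice in Trad-KAPA. In 3’-LEXO it was 647, 129 and 150 CPM and 1497 to 1817 CPM, so that control mouse 1 stood apart from the other controls. Iron-loaded mouse 1 stood apart from the other iron-loaded mice. Its counts differed from theirs by a chi-square per degree of freedom of 54.7 to 66.1, against 6.46 and 6.47 between iron-loaded mice 2 and 3 and 20.2 to 39.8 between control mice, so that iron-loaded mice 2 and 3 were also more alike than any control pair.

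The promoters of the genes were read first, because genes of this kind are known to be switched on through a shared response element. The RefSeq promoter table (GRCm38.p6, 250 bases before to 50 after each gene's start) held an entry for 8 of the 9 genes, Usp18 being the exception. The core of the element was searched as GAAANNGAAA and, on the other strand, TTTCNNTTTC, without mismatches, and matches were allowed to overlap. It was found in 5 of the 8 genes with an entry (Ifit1, Ifit3, Rsad2, Oas1a and Isg15), and 3.99% of the 27025 genes in the table hold it. With 1 mismatch allowed in the fixed letters, 7 of 8 members and 38.9% of all genes had a match. Isg15 and Ifit3 are shown because they are the members called for diet in both kits, and Ifit1 because it carries the same matches as Ifit3 in the same order. The sequences are those of the reference genome and were not read from the SJL/J mice studied here. Capitals mark the matches, and each sequence runs 5’ to 3’ on the strand of its gene, upstream of the start.
Isg15: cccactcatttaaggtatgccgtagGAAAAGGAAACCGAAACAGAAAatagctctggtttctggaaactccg
Ifit3: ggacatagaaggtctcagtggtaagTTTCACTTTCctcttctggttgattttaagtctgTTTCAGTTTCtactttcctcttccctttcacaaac
Ifit1: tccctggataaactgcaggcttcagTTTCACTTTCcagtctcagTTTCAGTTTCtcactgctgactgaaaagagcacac
These fragments lie at chr4:156200850-156200921 on the minus strand for Isg15, at chr19:34583348-34583441 on the plus strand for Ifit3 and at chr19:34640760-34640838 on the plus strand for Ifit1. Isg15 has 3 overlapping matches, the first 78 bases before the start of the gene. Ifit3 and Ifit1 have 2 separate matches each, and their first matches begin 156 and 104 bases before the start. Ifit2, Ifi44 and Irf7 had no match in this window, which says only that these letters are absent there.

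Isg15 and Ifit3 were the members that fell on the iron-loaded diet, and they did so in both kits. Isg15 was 2.23-fold lower with Trad-KAPA and 2.11-fold lower with 3’-LEXO, and Ifit3 was 2.05-fold and 2.45-fold lower. The test called 2 of the 9 members in Trad-KAPA, both lower, where 8.37% of 13151 genes tested were called lower and 8.77% higher. It called 2 of 9 in 3’-LEXO, both lower, where 2.92% of 13301 genes were called lower and 3.17% higher. The same 2 genes were called lower in both kits, against 2.55% of the 12229 genes tested in both. The median log2 fold change of the 9 members was -0.48 with Trad-KAPA and -0.49 with 3’-LEXO, beside a median of 0.02 and 0.01 over all genes tested. The first rested largely on iron-loaded mouse 1, without which it was -0.16, and the second was -0.36 without that mouse and -0.32 without iron-loaded mouse 2. In bulk tissue, fewer cells of a type and less RNA per cell cannot be told apart.

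The IFIT proteins bind foreign RNA and hinder its translation, and their genes lie close together on chromosome 19. Ifit3 (ENSMUSG00000074896, chr19:34583531-34588731 on the plus strand) had 9.06, 8.04 and 7.66 CPM in control mice 1, 2 and 3 and 2.43, 4.37 and 5.82 CPM in iron-loaded mice 1, 2 and 3 in Trad-KAPA. With 3’-LEXO the levels were 14.6, 19.9 and 11.4 CPM on the control diet and 4.60, 7.74 and 7.09 CPM on the iron-loaded diet. Every control mouse was above every iron-loaded mouse in both kits, and iron-loaded mouse 1 was the lowest in both. The log2 fold change was -1.03 ± 0.29 (SE, edgeR adjusted p = 0.0418) with Trad-KAPA and -1.29 ± 0.25 (SE, edgeR adjusted p = 0.0206) with 3’-LEXO. Without iron-loaded mouse 1, the value was -0.73 (edgeR adjusted p = 0.0213) with Trad-KAPA and -1.08 (edgeR adjusted p = 0.0166) with 3’-LEXO. The Trad-KAPA call was lost without control mouse 1, 2 or 3 or iron-loaded mouse 2 (edgeR adjusted p up to 0.117), and the 3’-LEXO call without control mouse 1 or 2 (up to 0.0806). Of the 50-base stretches of its transcripts, 51.2% also occur in transcripts of other genes, mainly Ifit3b. As only uniquely aligned reads were counted, reads of these stretches may be missing, and its level may be too low. Ifit3b, shown because it shares these stretches, had 2.24, 2.95 and 1.66 CPM against 0.143, 1.23 and 1.15 CPM in Trad-KAPA. In 3’-LEXO it had 4.50, 7.16 and 6.88 CPM against 2.91, 5.04 and 5.36 CPM. It did not pass the test in either kit (edgeR adjusted p = 0.0922 and 0.284).

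Ifit1 (ENSMUSG00000034459, chr19:34640871-34650009, plus strand) had log2 fold changes of similar size, with larger errors. In Trad-KAPA it had 3.87, 8.10 and 7.01 CPM in the control mice and 1.21, 4.51 and 3.09 CPM in the iron-loaded mice. 3’-LEXO gave 1.71, 7.08 and 3.69 CPM in the control mice and 1.15, 1.86 and 2.36 CPM in the iron-loaded mice. The diets overlapped in both kits, because control mouse 1 was below an iron-loaded mouse in each. The log2 fold change of -1.16 ± 0.45 (SE) with Trad-KAPA and -1.27 ± 0.49 (SE) with 3’-LEXO did not pass the test (edgeR adjusted p = 0.108 and 0.143). Without the filter on low counts, which tests more genes, it passed in both kits (edgeR adjusted p = 0.0142 and 0.00129). Without iron-loaded mouse 1 the Trad-KAPA value was -0.76.

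Ifit2 (ENSMUSG00000045932, chr19:34550694-34576419, plus strand) was the IFIT gene whose log2 fold change was not below 0 in either kit. It had 4.71, 2.95 and 2.39 CPM in the control mice and 2.36, 6.22 and 5.32 CPM in the iron-loaded mice in Trad-KAPA. The 3’-LEXO libraries had 2.86, 1.50 and 2.69 CPM and 1.99, 2.42 and 3.00 CPM, respectively. The diets overlapped in both kits, with log2 fold changes of 0.41 (95% interval -0.48 to 1.29) and 0.0048 (-0.75 to 0.76), neither of which passed the test. Without iron-loaded mouse 1 the Trad-KAPA value was 0.74 (edgeR adjusted p = 0.0843). Whether the diet difference of Ifit2 differs from that of Ifit3 was not tested.

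Rsad2, Oas1a and Ifi44 act in the cell against viruses in other ways. Rsad2 (ENSMUSG00000020641, chr12:26442746-26456452, minus strand) encodes viperin, an enzyme that makes a chain-terminating nucleotide. In Trad-KAPA it had 5.20, 7.97 and 6.22 CPM in the control mice and 3.93, 4.99 and 5.46 CPM in the iron-loaded mice. Measured by 3’-LEXO, the levels were 15.4, 25.3 and 23.2 CPM in the control mice and 19.6, 17.2 and 18.3 CPM in the iron-loaded mice. Control mouse 1 was the lowest control and overlapped the iron-loaded mice in both kits, and neither log2 fold change, -0.49 (95% interval -1.01 to 0.02) or -0.27 (-0.70 to 0.16), passed the test.

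Oas1a (ENSMUSG00000052776, chr5:120896256-120907521, minus strand) encodes an enzyme that senses double-stranded RNA and makes the oligoadenylate that activates RNase L. It was the least covered member, with 18 to 41 reads with Trad-KAPA and 6 to 23 with 3’-LEXO. Its levels were 1.75, 2.75 and 1.37 CPM against 1.29, 1.50 and 2.08 CPM in Trad-KAPA, and 1.64, 1.07 and 0.922 CPM against 0.767, 0.559 and 1.36 CPM in 3’-LEXO, control mice first. The diets overlapped in both kits, and the intervals of the log2 fold change (-1.09 to 0.43 and -1.47 to 0.49) leave differences of either sign possible. The log2 fold change was -0.33 in Trad-KAPA and, without iron-loaded mouse 1, -0.16. As 57.6% of its 50-base stretches occur in other genes, mainly Oas1g, its level is uncertain.

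Ifi44 (ENSMUSG00000028037, chr3:151730922-151749960, minus strand) encodes an interferon-induced GTP-binding protein. In Trad-KAPA it had 3.56, 3.68 and 2.82 CPM in the control mice and 1.36, 2.73 and 3.45 CPM in the iron-loaded mice. With 3’-LEXO the levels were 4.79, 6.44 and 5.03 CPM in the control mice and 2.61, 4.76 and 3.45 CPM in the iron-loaded mice. The diets overlapped with Trad-KAPA and were just separate with 3’-LEXO, by 0.032 CPM. Neither log2 fold change passed the test (-0.48, edgeR adjusted p = 0.343, and -0.65, edgeR adjusted p = 0.169). The former was -0.16 without iron-loaded mouse 1.

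Isg15 (ENSMUSG00000035692, chr4:156199424-156200818, minus strand) encodes a ubiquitin-like protein that is attached to other proteins. In Trad-KAPA it had 3.93, 4.49 and 4.55 CPM in control mice 1, 2 and 3 and 1.29, 2.46 and 2.30 CPM in iron-loaded mice 1, 2 and 3. 3’-LEXO gave 8.86, 14.4 and 13.4 CPM on the control diet and 4.22, 6.62 and 7.27 CPM on the iron-loaded diet. Every control mouse was above every iron-loaded mouse in both kits, and the gap in 3’-LEXO, between iron-loaded mouse 3 and control mouse 1, was 1.59 CPM. The log2 fold change was -1.16 ± 0.28 (SE, edgeR adjusted p = 0.0272) with Trad-KAPA and -1.08 ± 0.27 (SE, edgeR adjusted p = 0.0447) with 3’-LEXO. Without iron-loaded mouse 1 it was -0.89 (edgeR adjusted p = 0.0235) and -0.85 (edgeR adjusted p = 0.0533). The Trad-KAPA call was also lost without control mouse 1, 2 or 3 or iron-loaded mouse 3 (edgeR adjusted p up to 0.0836), and the 3’-LEXO call without control mouse 2 or 3 or iron-loaded mouse 1, 2 or 3 (up to 0.140). Its direction was the same in all of these fits. With counts drawn to 10 M reads per library, the Trad-KAPA calls of Isg15 and Ifit3 (edgeR adjusted p = 0.0833 and 0.05004) and the 3’-LEXO call of Isg15 (0.0598) did not hold.

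Usp18 (ENSMUSG00000030107, chr6:121245906-121270917, plus strand) removes ISG15 from proteins and damps the interferon receptor. In Trad-KAPA it had 5.20, 6.36 and 4.19 CPM in the control mice and 3.71, 7.45 and 6.90 CPM in the iron-loaded mice. The 3’-LEXO libraries had 4.93, 5.15 and 5.60 CPM in the control mice and 2.91, 4.57 and 6.00 CPM in the iron-loaded mice. Iron-loaded mouse 1 was the lowest of all mice and another iron-loaded mouse the highest in each kit, and the log2 fold changes of 0.14 (95% interval -0.52 to 0.80) and -0.28 (-0.91 to 0.35) did not pass the test. Without iron-loaded mouse 1 they were 0.42 and -0.025.

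Irf7 (ENSMUSG00000025498, chr7:141262706-141266481, minus strand) is the transcription factor that amplifies the production of type I interferon. In Trad-KAPA it had 17.5, 17.0 and 13.8 CPM in the control mice and 7.35, 17.4 and 19.0 CPM in the iron-loaded mice. Measured by 3’-LEXO, the levels were 5.72, 8.16 and 8.08 CPM in the control mice and 5.29, 7.55 and 9.91 CPM in the iron-loaded mice. The diets overlapped, and the log2 fold changes of -0.20 (95% interval -0.92 to 0.53) and -0.0080 (-0.60 to 0.59) did not pass the test. In both kits the sign rested on iron-loaded mouse 1, and without it the values were 0.14 and 0.21.

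**Figure D1:**
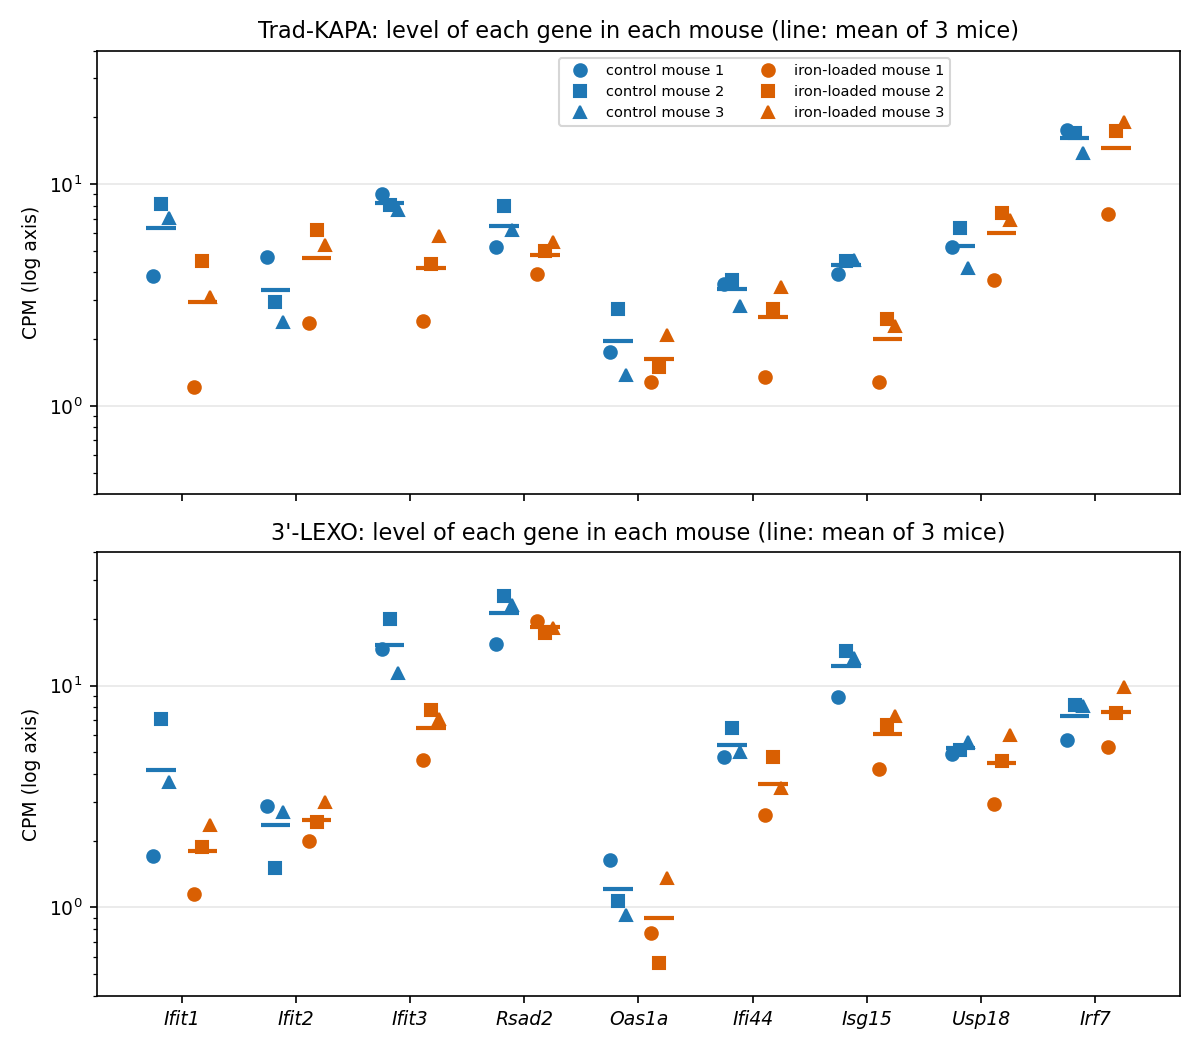
Level of each gene in each mouse, in CPM on a log axis, for Trad-KAPA (top) and 3’-LEXO (bottom), with control mice in blue, iron-loaded mice in orange and a line at the mean of 3 mice. The control points of Ifit3 and Isg15 lie above all iron-loaded points in both panels, and iron-loaded mouse 1 (orange circle) is the lowest point of 9 of 9 genes in Trad-KAPA.

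All control mice were above all iron-loaded mice in 2 of 9 members in Trad-KAPA, where this held for 16.6% of the genes tested, and in 3 of 9 in 3’-LEXO, where it held for 12.8%. The opposite order was seen in 0 of 9 members in either kit. Its share over all genes was not computed, so that no direction is read from this count. Iron-loaded mouse 1 was the lowest of the 6 mice for 9 of 9 members with Trad-KAPA and for 6 of 9 with 3’-LEXO. How often that mouse was the lowest over all genes was not counted, so that this is not shown to be particular to the members. Leaving iron-loaded mouse 1 out kept the count of called members at 2 with Trad-KAPA and gave 1, Ifit3, with 3’-LEXO.

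**Figure D2:**
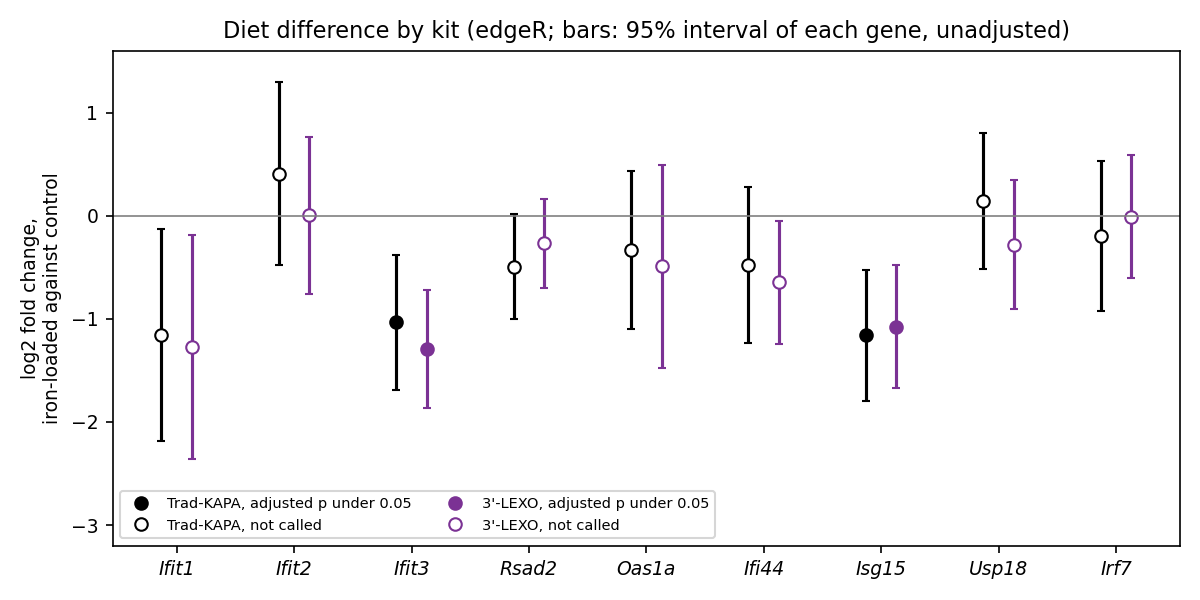
Log2 fold change of each gene, iron-loaded against control, in Trad-KAPA (black) and 3’-LEXO (purple), with filled points for an adjusted p under 0.05 and bars for the unadjusted 95% interval. Ifit3 and Isg15 are filled in both kits, at -1.03 and -1.16 with Trad-KAPA and -1.29 and -1.08 with 3’-LEXO, and the bars of Ifit2, Oas1a, Usp18 and Irf7 cross 0 in both, as do those of Rsad2.

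The members' shared pattern over the mice was summarised as the mean of their standardised log2 CPM within a kit. It was 0.31, 0.79 and -0.0023 in control mice 1, 2 and 3 and -1.52, 0.12 and 0.30 in the iron-loaded mice in Trad-KAPA. In 3’-LEXO it was 0.060, 0.68 and 0.52 in the control mice and -1.12, -0.35 and 0.21 in the iron-loaded mice. Control mouse 2 was the highest and iron-loaded mouse 1 the lowest in both kits, and the diets overlapped. Among 9311 genes with at least 50 counts on average in each kit, the 10 genes outside the members that followed this profile most closely were Parp14, Pmvk, Psmb9, Cnp, Ddx60, Syne2, Srbd1, Gm4951, Rpgrip1 and Clasp2. The lower of their 2 Pearson's r values was 0.955 for Parp14 and 0.918 for Clasp2, over 6 libraries per kit, as a description across mice in which iron-loaded mouse 1 takes the extreme place. The ranking rested on that mouse: without it, 0 of these 10 genes were among the 10 most alike, and their lower r was 0.331 to 0.800 over 5 libraries per kit. Parp14, an ADP-ribosyltransferase, and Psmb9, an immunoproteasome subunit, belong to the other interferon lists described next.

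**Figure D3:**
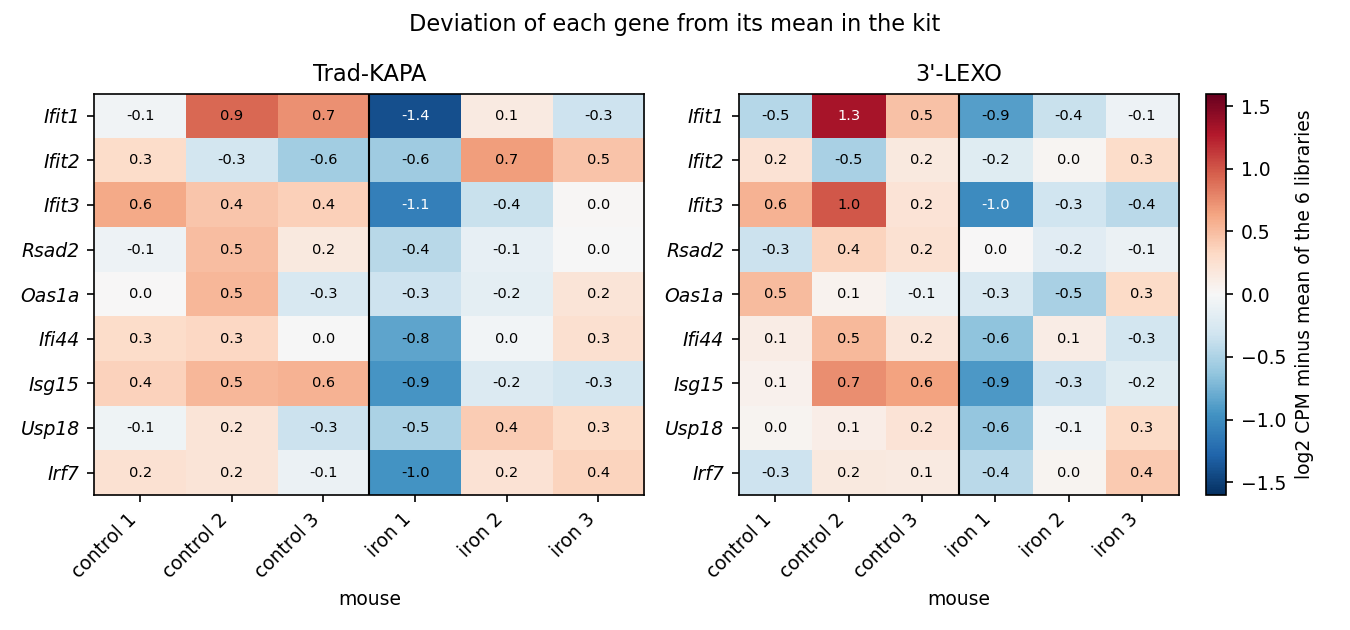
Log2 CPM of each gene in each mouse minus its mean over the 6 libraries of the kit, with red for higher and blue for lower values and a black line between the diets. The column of iron-loaded mouse 1 is below 0 for all genes in Trad-KAPA and reaches -1.4 for Ifit1.

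Other genes of the interferon pathway were described from lists of 136 genes, 127 of which had a row. In Trad-KAPA 23 of the 119 tested fell and 3 rose, where 8.37% of all genes tested were called lower and 8.77% higher. The median log2 fold change of the 119 was -0.29, and 93 did not pass the test. In 3’-LEXO 6 of 115 fell and 2 rose, with a median of -0.19, where 2.92% of all genes tested were called lower and 3.17% higher. Below 0 were 87 of 119 and 85 of 115 log2 fold changes, beside 6376 of 13151 and 6480 of 13301 over all genes tested. The lists were chosen with earlier results of these data known, so that these comparisons with all genes are a description only. The genes that passed in both kits included the antiviral effector genes Helz2, Cmpk2, Oas2 and Trim34a and the chemokine gene Cxcl11, which fell, and Nampt and Ly6a, which rose, where 2.67% of genes were called higher in both kits. These counts depended on single mice: without 1 mouse, the number called was 5 to 36 in Trad-KAPA, lowest without control mouse 2, and 2 to 11 in 3’-LEXO, also lowest without control mouse 2.

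Helz2 encodes a helicase that works as a nuclear receptor coactivator. It had 187, 224 and 196 CPM in the control mice and 116, 111 and 110 CPM in the iron-loaded mice in Trad-KAPA. With 3’-LEXO the levels were 52.7, 65.7 and 49.6 CPM and 22.2, 31.9 and 24.5 CPM. The diets did not overlap in either kit, at 1.89-fold and 2.22-fold lower (edgeR adjusted p = 0.00326 and 0.00819). Cmpk2, a mitochondrial nucleotide kinase gene that neighbours Rsad2, had 4.53, 5.09 and 5.13 CPM against 1.86, 1.98 and 2.23 CPM in Trad-KAPA. 3’-LEXO gave 3.22, 5.15 and 3.55 CPM against 0.690, 1.86 and 1.27 CPM. It was 2.54-fold and 3.26-fold lower (edgeR adjusted p = 0.00624 and 0.0313), and its diets did not overlap in either kit. The 3’-LEXO call of Cmpk2 was lost without control mouse 1, 2 or 3 or iron-loaded mouse 3 (edgeR adjusted p up to 0.114).

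Oas2, a relative of Oas1a, had 13.4, 6.97 and 5.93 CPM against 3.57, 4.30 and 4.96 CPM in Trad-KAPA and was 2.14-fold lower (edgeR adjusted p = 0.0428). In 3’-LEXO it was 2.75-fold lower (edgeR adjusted p = 0.0499). Control mouse 1 was the highest in both. The Trad-KAPA call was lost in each of the 6 fits without 1 mouse (edgeR adjusted p up to 0.102) and the 3’-LEXO call in all but that without iron-loaded mouse 2 (up to 0.160). Trim34a, a gene of the TRIM family, was 2.02-fold lower with Trad-KAPA and 2.16-fold lower with 3’-LEXO (edgeR adjusted p = 0.0207 and 0.0141). Cxcl11, a chemokine gene induced by interferon-gamma, was 1.91-fold and 2.13-fold lower (edgeR adjusted p = 0.0187 and 0.0354). Without control mouse 2, Trim34a and Cxcl11 were called in neither kit. In Trad-KAPA the call was also lost without control mouse 1 or 3 (Trim34a) or without iron-loaded mouse 3 (both genes), with edgeR adjusted p up to 0.0678. In 3’-LEXO that of Cxcl11 was also lost without control mouse 1 or iron-loaded mouse 1, 2 or 3, with edgeR adjusted p up to 0.118.

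Nampt, which makes the NAD precursor nicotinamide mononucleotide, had 33.9, 34.3 and 25.9 CPM against 78.1, 99.1 and 105 CPM in Trad-KAPA and was 2.87-fold higher (edgeR adjusted p = 0.00175). In 3’-LEXO it was 2.91-fold higher (edgeR adjusted p = 0.00611). Ly6a, a surface protein gene, was 1.89-fold and 1.82-fold higher (edgeR adjusted p = 0.0250 and 0.0206). The Ly6a calls were lost in either kit without control mouse 2 or 3 or iron-loaded mouse 3, in Trad-KAPA also without iron-loaded mouse 2 and in 3’-LEXO also without control mouse 1 (edgeR adjusted p up to 0.0885). Helz2 and Nampt were still called in both kits in each of the 6 fits without 1 mouse.

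By list, the other antiviral effectors, the longest list, had the most calls, which their number alone favours. In Trad-KAPA 15 were lower and 2 higher of 53 tested, beside 8.37% and 8.77% over all genes tested. With 3’-LEXO 4 were lower and 2 higher of 51, beside 2.92% and 3.17%. Oasl2 (2.30-fold lower, edgeR adjusted p = 0.0221) and Oas1b (1.86-fold lower, edgeR adjusted p = 0.0486) passed in Trad-KAPA, were 1.68-fold and 1.65-fold lower in 3’-LEXO without passing, and were not called for the interaction of diet and kit. In the ISG15 conjugation list, Uba7, the enzyme that activates ISG15, was 1.52-fold lower in Trad-KAPA (edgeR adjusted p = 0.0285), and 1.40-fold lower in 3’-LEXO without passing (edgeR adjusted p = 0.203). Oas1b lost its call in each of the 6 fits without 1 mouse (edgeR adjusted p up to 0.128), and Oasl2 and Uba7 lost theirs without control mouse 1, 2 or 3 or iron-loaded mouse 2 (up to 0.0767 and 0.0950). Of 13 tested genes induced mainly by interferon-gamma, 2 fell with Trad-KAPA and 1 with 3’-LEXO, beside the same 8.37% and 2.92% called lower over all genes tested. Irgm1, a GTPase gene, was 1.74-fold lower in Trad-KAPA (edgeR adjusted p = 0.0108) and was called in each of the fits without 1 mouse as well.

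Upstream of the members lie the receptors, sensors and regulatory factors. Of the receptors and JAK-STAT genes, 1 rose and 1 fell of 13 tested in Trad-KAPA, near the 8.77% called higher and 8.37% called lower over all genes tested. In 3’-LEXO 0 of 13 passed edgeR, 3 had an unadjusted p under 0.05 and DESeq2 called 0. The kinase gene Tyk2 was 1.54-fold lower in Trad-KAPA (edgeR adjusted p = 0.0130) and 1.43-fold lower in 3’-LEXO (edgeR adjusted p = 0.0910), and without control mouse 2 the former did not pass either (edgeR adjusted p = 0.0546). Ifnlr1, a receptor gene for interferon-lambda, had 3, 1 and 3 reads in the control libraries of Trad-KAPA and 18, 12 and 19 in the iron-loaded ones (edgeR adjusted p = 0.0108), and its control group is at the floor, so that no fold is given. In 3’-LEXO Ifnlr1 was below the filter on low counts and not tested, with 4, 3 and 6 reads against 16, 12 and 5. Of the interferon regulatory factor genes, 2 of 7 fell in Trad-KAPA and 1 of 6 in 3’-LEXO, beside 8.37% and 2.92% called lower over all genes tested. Among them Irf5, a transcription factor gene, was 1.39-fold lower in Trad-KAPA (edgeR adjusted p = 0.0327), a call lost without control mouse 1 or 2 or iron-loaded mouse 2 or 3 (up to 0.104).

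Of the nucleic acid sensing genes, 2 of 16 fell in Trad-KAPA, where 8.37% of all genes tested were called lower. They were Ddx58, which encodes RIG-I (1.45-fold lower, edgeR adjusted p = 0.0292), and its adaptor Mavs (1.33-fold lower, edgeR adjusted p = 0.0218). Both calls were lost without control mouse 1 or 2 or iron-loaded mouse 2 or 3, and that of Ddx58 also without control mouse 3 (edgeR adjusted p up to 0.0994). In 3’-LEXO 0 of 15 passed edgeR, 6 had an unadjusted p under 0.05 and DESeq2 called 0. The interferon genes themselves were at the limit of detection, as Ifng had 1 read in the Trad-KAPA libraries and 2 in the 3’-LEXO libraries and Ifnk had 1 and 0. Other interferon genes were not analysed here. Of the MHC class I genes 0 of 14 passed edgeR in either kit, with an unadjusted p under 0.05 for 5 in Trad-KAPA (DESeq2 called 2) and for 2 in 3’-LEXO (DESeq2 called 1). The most abundant, B2m, had 1269, 1237 and 1328 CPM against 1074, 1026 and 1070 CPM in Trad-KAPA (edgeR adjusted p = 0.0791).

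**Figure D4:**
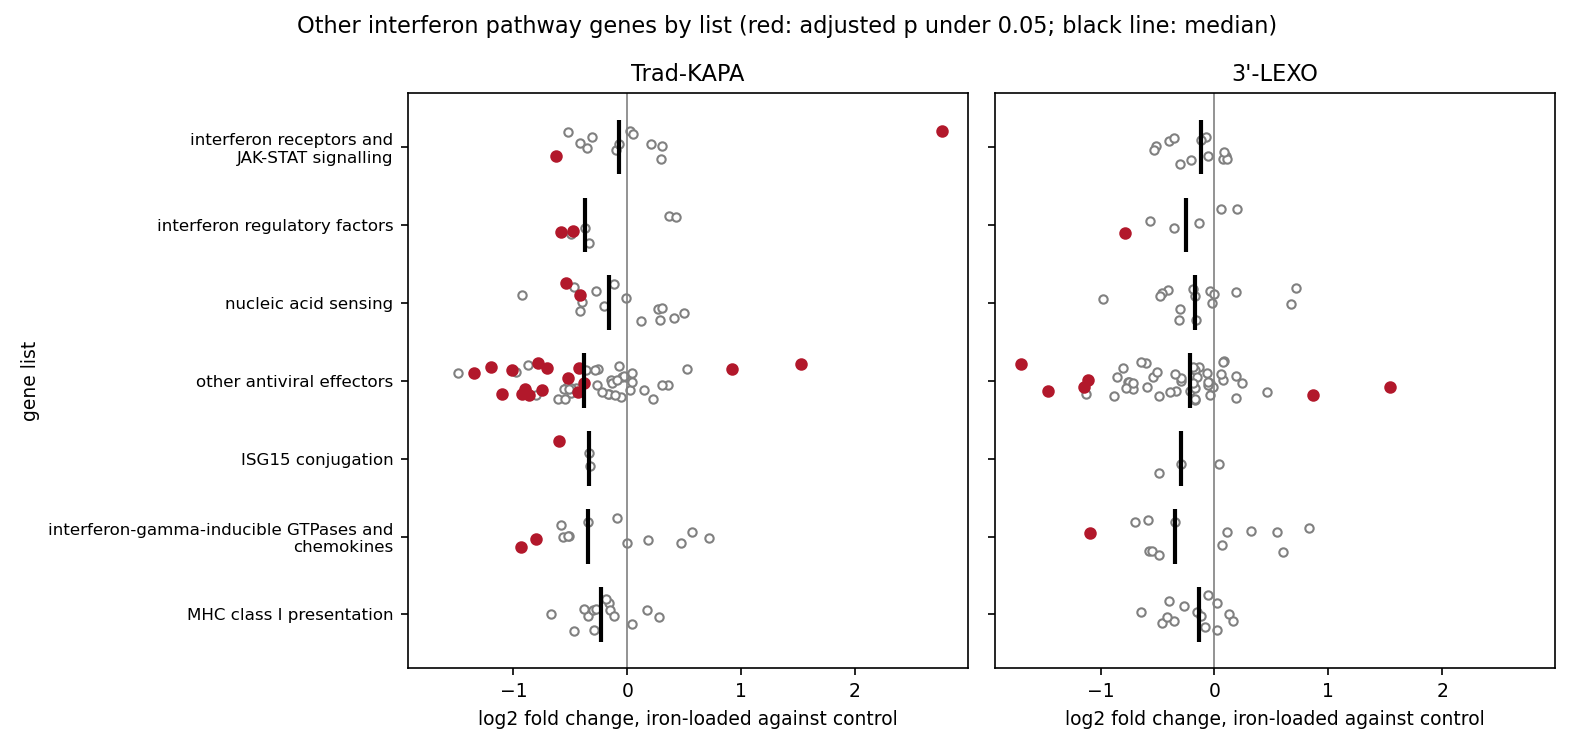
Log2 fold change, iron-loaded against control, of each other interferon pathway gene tested, by list (rows), in Trad-KAPA (left) and 3’-LEXO (right), with red points for an adjusted p under 0.05 and a black line at the median of a list. The medians of all 7 lists are below 0 in both kits, and the red points above 0 in both panels are Nampt at 1.52 and 1.54 and Ly6a at 0.92 and 0.86, while the one farthest right in Trad-KAPA is Ifnlr1, whose control libraries are at the floor.

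Markers of some other cell types moved with the diet as well. Some monocyte, neutrophil and Kupffer cell markers rose, the opposite direction to Isg15 and Ifit3. Over all genes tested, 8.77% were called higher in Trad-KAPA and 3.17% in 3’-LEXO. Of the 8 monocyte and neutrophil markers, 4 of 6 tested rose with Trad-KAPA and 3 of 6 with 3’-LEXO, and their summed level was 29.9 to 52.9 CPM in the control mice and 74.7 to 87.8 CPM in the iron-loaded mice in Trad-KAPA. In 3’-LEXO the sums were 85.2 to 128 CPM and 204 to 234 CPM. The neutrophil marker Ly6g had 0 to 2 reads in every library. Of the 10 Kupffer cell markers, only Vsig4 and Marco were called higher in Trad-KAPA and only Marco in 3’-LEXO. Marco, a scavenger receptor gene, was 8.59-fold higher in Trad-KAPA and 7.06-fold higher in 3’-LEXO (edgeR adjusted p = 0.00143 and 0.00233). The Kupffer cell sums were 498 to 778 CPM on the control diet and 867 to 948 CPM on the iron-loaded diet by Trad-KAPA. By 3’-LEXO they were 1127 to 1508 CPM and 1486 to 1722 CPM, and the diets overlapped.

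The markers of plasmacytoid dendritic cells, which are strong producers of type I interferon, were mostly scarce, and 0 of the 2 tested passed edgeR in either kit, with 1 and 0 at an unadjusted p under 0.05 and 0 called by DESeq2. Siglech, which defines them, had 1 to 12 reads in a library, and Klk1 was at 0 reads in every Trad-KAPA library. Their summed level was 20.8 to 23.4 CPM in the control mice and 28.0 to 29.8 CPM in the iron-loaded mice in Trad-KAPA, and 53.9 to 55.6 CPM and 56.4 to 65.7 CPM in 3’-LEXO. Tcf4, which other cell types express as well, made up most of these sums, with 19.5 to 21.03 CPM against 25.7 to 27.6 CPM in Trad-KAPA and 50.7 to 53.0 CPM against 53.4 to 61.9 CPM in 3’-LEXO. Of the lymphocyte markers, edgeR called 0 of 7 tested in the first kit and 0 of 6 in the second, with 0 at an unadjusted p under 0.05 and 0 called by DESeq2, and their sums overlapped between the diets (8.82 to 16.7 CPM and 11.5 to 16.2 CPM in Trad-KAPA). Of the 8 sinusoidal endothelial markers, 3 rose in Trad-KAPA, where their sums were 358 to 470 CPM on the control and 452 to 549 CPM on the iron-loaded diet, while 1 rose and 1 fell in 3’-LEXO, with sums of 370 to 450 CPM and 325 to 358 CPM. Of the 8 hepatocyte markers, edgeR called 0 in Trad-KAPA (2 at an unadjusted p under 0.05, 1 called by DESeq2) and Tat alone, as higher, in 3’-LEXO. Iron-loaded mouse 1 had the lowest hepatocyte sum in both kits, 111880 and 44933 CPM. The part of these cell types in the differences of the interferon-stimulated genes was not tested.

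The diet difference of a member did not differ detectably between the kits. Of the 9 members, 0 were called for the interaction of diet and kit with edgeR, 0 had an unadjusted p under 0.05 and DESeq2 also called 0, with 0.0% of 14384 genes called over the whole table. The difference of the 2 log2 fold changes, 3’-LEXO minus Trad-KAPA, was 0.08 for Isg15 (95% interval -0.77 to 0.93) and -0.26 for Ifit3 (-1.14 to 0.62). These intervals come from the fit without the mouse as a block, which leaves out that both kits were run on the same RNA. They are wide, so that equal effects in the kits were not shown. With the mouse as a replicate block, 0 members were called as well.

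The share of reads that a member took did differ between the kits in the same RNA. In 3’-LEXO relative to Trad-KAPA, 4 members were called higher and 3 lower with edgeR, where 38.8% of all genes were called higher and 37.6% lower, so that 7 of 9 is a share near that of all genes. Without control mouse 2 or iron-loaded mouse 2 the number called was 4. Rsad2 was 3.56-fold higher (log2 1.83 ± 0.15, SE, edgeR adjusted p = 7.91e-08), Isg15 2.90-fold higher (edgeR adjusted p = 9.40e-06), Ifit3 1.68-fold higher and Ifi44 1.52-fold higher. Irf7 was 2.06-fold lower (edgeR adjusted p = 0.000875), Oas1a 1.70-fold lower and Ifit2 1.63-fold lower. Ifit1 and Usp18 did not pass, with log2 differences of -0.67 (95% interval -1.47 to 0.12) and -0.21 (-0.67 to 0.25). Since both kits were run on the RNA of the same mice, the fit with the mouse as a replicate block bears on these calls. It called 8 members, the added one being Ifit1 (log2 difference -0.67 ± 0.18, SE, edgeR adjusted p = 0.00228), which was lower in 3’-LEXO in each of the 6 mice, and Usp18 did not pass (edgeR adjusted p = 0.168). In that fit 6032 of 14384 genes were called higher in 3’-LEXO and 5852 lower, so that 8 of 9 is also near the share of all genes.

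For Rsad2 and Isg15 the ratio was above 1 in all 6 mice, with a log2 ratio of CPM of 1.83 ± 0.27 and 1.54 ± 0.21 (SD, n = 6 mice). For Irf7 it was below 1 in all 6 mice, at -1.01 ± 0.39 (SD, n = 6 mice). Isg15, with 756 bp of merged exons the shortest member, and Rsad2, with 4335 bp, were both higher in 3’-LEXO. The part of transcript length in these ratios was not tested. The exons of Irf7 merge into 1 block of 3776 bp and overlap Phrf1 on the other strand.

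**Figure D5:**
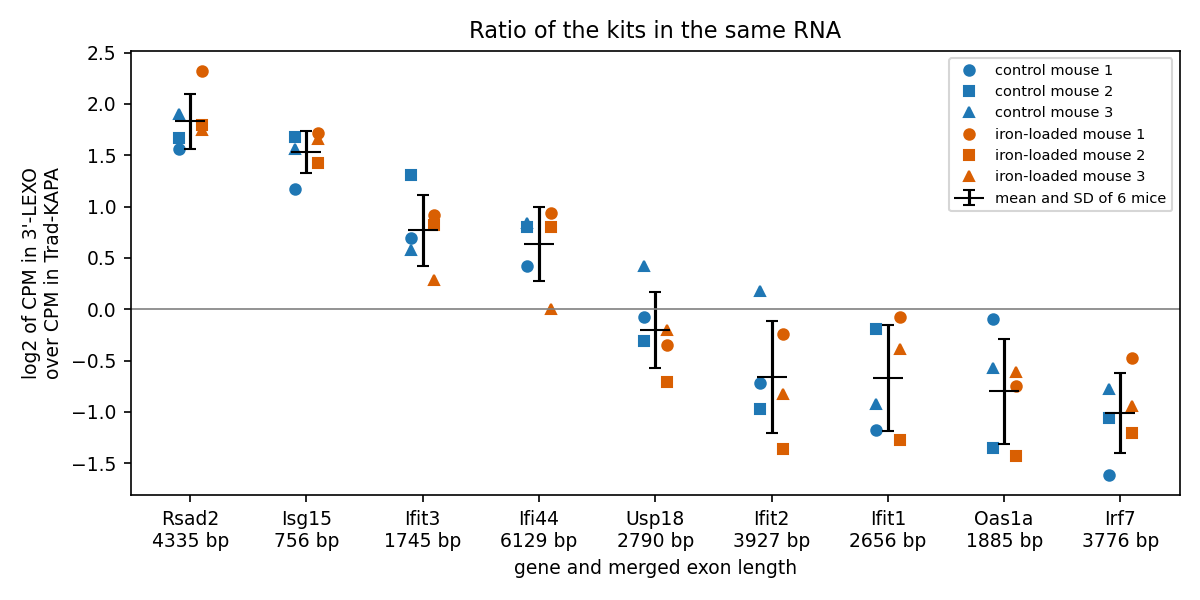
Log2 ratio of the CPM of each gene in 3’-LEXO over that in Trad-KAPA, for each mouse (points, control in blue and iron-loaded in orange), with the mean and SD over 6 mice in black and the merged exon length under each name. Rsad2 (mean 1.83) and Isg15 (mean 1.54) lie above 0 in every mouse and Irf7 (mean -1.01) below 0 in every mouse.

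Within Trad-KAPA, where reads scale with length, levels can be compared between genes as CPM per kb of merged exons, a length that joins every annotated transcript of a gene and so can exceed that of the message. On the control diet the order was Isg15 at 5.72 ± 0.46, Ifit3 at 4.73 ± 0.42, Irf7 at 4.27 ± 0.53, Ifit1 at 2.38 ± 0.83, Usp18 at 1.88 ± 0.39, Rsad2 at 1.49 ± 0.32, Oas1a at 1.04 ± 0.38, Ifit2 at 0.853 ± 0.31 and Ifi44 at 0.548 ± 0.076 CPM per kb (SD, n = 3 mice). Neighbours in this order overlapped between mice except for Isg15 over Ifit3, Irf7 over Ifit1 and Ifit2 over Ifi44. The lowest Isg15 was barely above the highest Ifit3, at 5.194 against 5.193 CPM per kb. Ifit2 over Ifi44 was also close, at 0.607 against 0.601. The stretches that Ifit3 and Oas1a share with other genes, given above, make their places in the order uncertain. That of Irf7 is uncertain as well, because its merged exons form 1 block of 3776 bp over the whole gene, so that its CPM per kb may be too low. On the iron-loaded diet Irf7 was first, at 3.87 ± 1.68 CPM per kb, and Isg15 and Ifit3 followed at 2.67 ± 0.84 and 2.41 ± 0.98 CPM per kb, with all 3 overlapping.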

How the data were processed

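Liver RNA of 6 mice was sequenced in 12 libraries with single-end reads of 50 bp. The authors aligned them to GRCm38 by STAR 2.5.3a and deposited raw counts, each the number of uniquely aligned reads on a gene's exons, without normalization or removal of duplicates. The counting program and annotation release are not given in the sources used here. Every table value is a whole number, and all columns were mapped to samples by name. Symbols and lengths come from GENCODE M21 and promoters from RefSeq (GRCm38.p6). The depth was 13834682 to 16553616 counts in Trad-KAPA and 10724672 to 14104236 in 3’-LEXO, and the number of mice limits the precision. The replicates are separate mice.

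Diet was tested within each kit by the quasi-likelihood F test of edgeR 4.0.16 (R 4.3.3, limma 3.58.1), with TMM, filterByExpr, Benjamini-Hochberg adjustment and a threshold of 0.05. The interaction and the kit difference were fitted over all 12 libraries. The fits were tested on simulated counts. Alternatives were DESeq2 1.42.0, its size factors, no filter, a replicate block, 10 M reads per library and leaving out each mouse. Summaries were made in Python 3.11.15 with pandas 2.3.3. The profile was computed on log2 of CPM plus 0.5. Intervals and SE are the test's own, and a count below the floor of 3 reads was not used for a fold.

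The members and lists were chosen with earlier results of these data known. Named were all 9 members, the other listed genes called in both kits (apart from a result not reported here), in each list the 2 with the largest change called in 1 kit, the most abundant of a list without a call, and the 10 genes most like the members. Marker genes were named where their list moved. A replicate number was taken from the sample titles to stand for the same mouse within a diet, whichever the kit. The r of its deviations between the kits was 0.456 to 0.793 over 9311 genes. This r was the highest with the own number for 5 mice. Iron-loaded mouse 2 was the exception, at 0.550 with its own number and 0.632 with another. The match of iron-loaded mice 2 and 3 between the kits therefore rests on the titles. The block on mice and the kit ratios of single mice rely on it. Across diets the numbers name no pairs.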

Additional observations from a re-analysis of the deposited data

How the results depend on the processing

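Counts of calls were the results that moved most. With counts drawn to 10 M reads per library, 0 members were called by Trad-KAPA and 1 by 3’-LEXO. In fits without 1 mouse, between 0 and 2 members were called by Trad-KAPA and between 0 and 1 by 3’-LEXO, between 5 and 36 other interferon pathway genes in Trad-KAPA and between 2 and 11 in 3’-LEXO, and between 4 and 7 members for the kit difference. In 3’-LEXO the other genes called, 8 as reported, were 15 with DESeq2, 26 without the filter on low counts and 5 with a replicate block. The cause was not tested, except that fits without a mouse or with fewer reads hold less data.

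Of 198 alternative values of the members' log2 fold changes, 18 lost a call, 3 gained one and 0 called values changed sign. The log2 fold change of Isg15 stayed between -1.35 and -0.89 in Trad-KAPA and between -1.27 and -0.85 in 3’-LEXO, and that of Ifit3 between -1.34 and -0.73 and between -1.46 and -1.08. DESeq2 called 2 members in each kit. The interaction gave 0 members under every alternative run. Across diets, the numbers 1 to 3 pair nothing by design, and the r of same-numbered mice was -0.17 to 0.10, with 3 of 6 numbers correlating best with their own. With the replicate block, Trad-KAPA called 3 members and 3’-LEXO 2. With the mouse as a replicate block over both kits, 8 members were called for the kit difference and 0 for the interaction. For the kit difference, that fit called 6032 of 14384 genes higher and 5852 lower. The members' median and the ranking of the genes most like them were repeated without single mice after the data had been seen. The median was -0.60 to -0.16 in Trad-KAPA and -0.64 to -0.32 in 3’-LEXO.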
